A study of Rattus norvegicus with 4 samples.

Results

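The Cadm family comprises the 4 genes Cadm1, Cadm2, Cadm3 and Cadm4, which code for the adhesion proteins also called SynCAM or nectin-like proteins. The members were taken by symbol from the deposited gene count table, which gave 4 rows, 1 for each gene, of 21648 gene identifiers in all. RNA was sequenced from neurons of the rat cortex taken at embryonic day 18, bought from a supplier and grown in culture with either topotecan or the solvent DMSO, with 2 libraries in each group. Topotecan inhibits topoisomerase I, the enzyme that releases the twist that transcription builds up in DNA, and the submitters' stated aim in adding it was to reduce long-gene expression. The sources used here give neither its dose nor its duration. Every culture was plated in a neural induction medium and moved after 24 hours to a neuronal medium with a supplement. No label states that replicates were separate cultures, so p-values reflect only how far these samples differ, possibly for technical reasons.

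Cadm proteins cross the membrane of the cell and carry immunoglobulin-like domains outside it. They bind one another across the cleft between an axon and its partner, either in like pairs or in unlike pairs such as Cadm1 with Cadm2 and Cadm3 with Cadm4. Their short tails hold a binding site for FERM-domain proteins of the Epb41 family, which tie them to the spectrin and actin cytoskeleton, and end in a ligand for PDZ-domain scaffolds such as Cask. In the cortex Cadm1 is known for promoting excitatory synapses, and in peripheral nerve Cadm3 on the axon and Cadm4 on the myelinating cell hold them together.

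The libraries held 25459488 to 31181382 counts in topotecan and 22957786 to 27347410 in DMSO, of which 96.3% to 97.0% fell on protein-coding genes. The labels name a kit for small RNA, which is hard to square with that share. The markers of the labelled cell type were detected in both groups, at widely differing levels. The summed level of 12 pan-neuronal marker genes was 24605 and 25963 CPM (counts per 1e6 counts of the library, scaled by the TMM method, which assumes that most genes do not change) in topotecan, against 22133 and 20000.1 CPM in DMSO. Tubb3, Stmn2 and Uchl1 carry most of this sum. Rbfox3, also on the list, had means of only 8.16 CPM in topotecan and 14.0 CPM in DMSO. Of the 12 markers, 4 were called higher in topotecan and 2 lower. Over all tested genes, 16.2% were called higher and 23.5% lower. Glial markers were not comparable between the groups. All 10 astrocyte markers were called lower, with summed levels of 114 and 126 CPM in topotecan and 3889.7 and 3959 CPM in DMSO, and no marker was at 0 in both topotecan libraries. All 11 oligodendrocyte lineage markers were called lower too, at 136 and 123 CPM in topotecan and 4034 and 4335 CPM in DMSO, with Sox10 at 0 counts in both topotecan libraries. In such bulk samples, fewer cells of a type and less RNA per cell cannot be told apart. The part of these cells in the results below was not tested.

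The comparison of topotecan with DMSO asked whether the family's genes, which differ widely in length, changed together. The 2 members that were called moved in opposite directions. Cadm2 fell 6.87-fold, Cadm3 rose 1.55-fold, and Cadm1 and Cadm4 did not pass the test (edgeR quasi-likelihood test with Benjamini-Hochberg adjustment over all 12162 tested genes, threshold 0.05). All 4 members passed the filter on low counts. Thus 1 of the 4 was called lower, where 23.5% of all tested genes were, and 1 was called higher, where 16.2% of all tested genes were. In either direction 39.7% of tested genes were called, so 2 calls among 4 members is close to the background. The number of genes called higher, 1970 with all libraries, depended on which library was left out. It fell without either topotecan replicate and rose without DMSO replicate 1. The median log2 fold change of the 4 members was 0.37, a value that none of them is near, beside -0.01 over all tested genes. CPM are not divided by transcript length, so levels are compared between groups for the same gene and not between members.

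**Figure D1:**
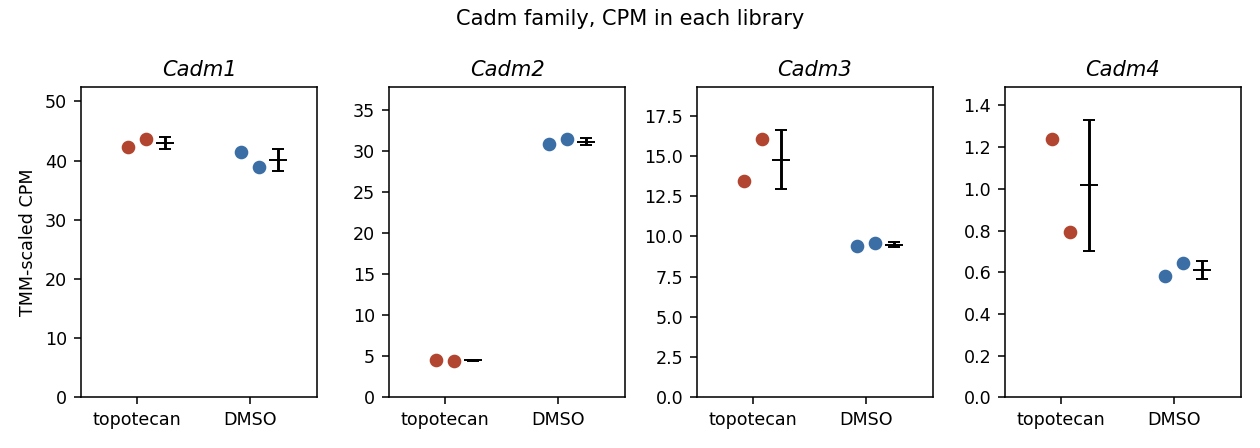
TMM-scaled CPM of each Cadm gene in the 2 topotecan libraries and the 2 DMSO libraries, 1 panel per gene with its own axis from 0. Points are libraries, and the black mark beside them is the mean with its SD (n = 2). Cadm2 stands at 4.57 and 4.48 CPM in topotecan and at 30.8 and 31.5 CPM in DMSO, whereas the Cadm1 points lie between 38.8 and 43.6 CPM in all 4 libraries.

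Cadm2 (ENSRNOG00000030840), which codes for the unlike binding partner of Cadm1, was the member that fell. It had 140 and 113 counts in the topotecan libraries, against 850 and 735 counts in the DMSO libraries. After scaling this was 4.57 and 4.48 CPM in topotecan, and 30.8 and 31.5 CPM in DMSO. Replicates lay close together and the groups were far apart, with means of 4.52 ± 0.0611 CPM in topotecan and 31.1 ± 0.466 CPM in DMSO (SD, n = 2 each). The log2 fold change was -2.78 (SE 0.14, edgeR adjusted p = 1.8e-09), with a 95% interval for the fall from 5.58-fold to 8.47-fold. Of all 12162 tested genes, 627 had a lower log2 fold change. Both topotecan libraries kept Cadm2 counts, so the transcript was reduced and still detected at this depth.

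Cadm3 (ENSRNOG00000003365), which codes for a member found mainly on neurons and their axons, was the one that rose. It had 413 and 405 counts in the topotecan libraries, against 259 and 224 in the DMSO libraries. Its levels were 13.5 and 16.1 CPM in topotecan, and 9.39 and 9.59 CPM in DMSO. Both topotecan libraries were above both DMSO libraries, and the topotecan pair was spread more widely, with means of 14.8 ± 1.83 CPM in topotecan and 9.49 ± 0.143 CPM in DMSO (SD, n = 2 each). The log2 fold change was 0.64 (SE 0.15, edgeR adjusted p = 0.0041), with a 95% interval from 1.24-fold to 1.94-fold. The call was lost when topotecan replicate 2 was left out, where the log2 fold change was 0.51 and the edgeR adjusted p was 0.057. It was also lost under another scaling. There libraries were scaled to the summed counts of 12 neuronal genes, a list that shares most of its genes with the pan-neuronal markers. The Cadm3 log2 fold change was then 0.33 and the edgeR adjusted p was 0.15, while the median of all tested genes moved from -0.01 to -0.31. Of these 12 scaling genes, 5 were called higher and 0 lower under TMM, with a median log2 fold change of 0.24, so scaling to them lowers all other values. Relative to the median of all genes the Cadm3 value moved little. A change of scaling shifts all genes nearly alike, so this cannot decide which scaling is right. Over all tested genes, 16.2% were called higher and 23.5% lower under TMM. Among the pan-neuronal markers, 4 of 12 were called higher in the same libraries and 2 lower. The log2 fold changes of the higher ones were 0.78 for Uchl1, 0.39 for Nefm, 0.35 for Tubb3 and 0.34 for Elavl3. Those of the lower ones were -0.47 for Map2 and -0.78 for Rbfox3. The 4 higher ones are also scaling genes, whereas Map2 and Rbfox3 are not.

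Cadm1 (ENSRNOG00000018778), the best studied member and a known organiser of excitatory synapses that astrocytes also make, did not pass the test. It had 1296 and 1101 counts in the topotecan libraries, against 1144 and 907 counts in the DMSO libraries. Its levels were 42.3 and 43.6 CPM in topotecan, and 41.5 and 38.8 CPM in DMSO. The topotecan values sit just above the DMSO values, with means of 43.0 ± 0.974 CPM in topotecan and 40.1 ± 1.86 CPM in DMSO (SD, n = 2 each). Such separation of the groups was common, as 70.6% of all tested genes had groups that did not overlap. The log2 fold change was 0.10 (SE 0.10, edgeR adjusted p = 0.49), and the 95% interval ran from 0.92-fold to 1.25-fold. The sign turned under the neuronal scaling, where the log2 fold change was -0.20 (edgeR adjusted p = 0.30). A fall of the size seen for Cadm2 lay far outside this interval.

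Cadm4 (ENSRNOG00000024243), the member known from myelinating glia as the partner of axonal Cadm3, was scarcely detected. It had 38 and 20 counts in the topotecan libraries, against 16 and 15 in the DMSO libraries. This corresponded to 1.24 and 0.793 CPM in topotecan, and 0.58 and 0.642 CPM in DMSO, with means of 1.02 ± 0.316 CPM in topotecan and 0.611 ± 0.0440 CPM in DMSO (SD, n = 2 each). The 2 topotecan libraries differed from each other by more than the lower of them differed from DMSO. The log2 fold change was 0.75 (SE 0.40, edgeR adjusted p = 0.16), and it was 0.38 when topotecan replicate 1 was left out and 1.02 when topotecan replicate 2 was. Its 95% interval, from 0.92-fold to 3.07-fold, was wide, and a change of the size seen for Cadm3 was not detectable at this depth. All 11 oligodendrocyte lineage markers were called lower in the same topotecan libraries, with a median log2 fold change of -5.57. The Cadm4 counts were not lower there, but they were few, and the part of glial cells in them was not tested.

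The members called in opposite directions are shown by the sequence around the start of transcription, the 250 bases before and 50 after it in the RefSeq annotation of GRCr8. The promoter table held 3 of the members, matched by symbol. The Cadm2 window is chr11:18971837-18972136 and the Cadm3 window is chr13:88349669-88349968, both on the minus strand. Capitals mark matches, on either strand, to the CCAAT box (CCAAT, read ATTGG on the other strand) or the GC box (GGGCGG).
Cadm2: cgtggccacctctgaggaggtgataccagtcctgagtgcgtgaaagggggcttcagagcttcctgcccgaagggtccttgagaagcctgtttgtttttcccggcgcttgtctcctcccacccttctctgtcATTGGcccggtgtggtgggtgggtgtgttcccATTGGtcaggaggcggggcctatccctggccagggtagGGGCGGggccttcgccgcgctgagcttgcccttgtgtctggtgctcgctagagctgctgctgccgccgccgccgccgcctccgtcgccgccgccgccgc
Cadm3: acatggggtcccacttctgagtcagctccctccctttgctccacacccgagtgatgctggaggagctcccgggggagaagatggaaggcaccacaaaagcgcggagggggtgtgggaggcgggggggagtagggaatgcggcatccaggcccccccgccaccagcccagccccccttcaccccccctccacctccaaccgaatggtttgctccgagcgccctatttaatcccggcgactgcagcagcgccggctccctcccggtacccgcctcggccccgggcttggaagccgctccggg
The Cadm2 window held 2 matches to the CCAAT box and 1 to the GC box, and that of Cadm3 held 0 of both. The TATA box letters TATAAA were in neither window. Of 33469 rat promoter windows of the same length, 37.5% held the CCAAT letters, 33.1% the GC box letters and 14.2% the TATA box letters. Both windows were rich in G and C, at 67.0% for Cadm2 and 68.7% for Cadm3, where the median window had 51.7%. They held 23 and 20 CpG dinucleotides, against a median of 7. The Cadm4 window, not printed as Cadm4 had no call, held 4 matches to the GC box, 0 to the CCAAT box and 37 CpG. These matches are descriptions of the letters, and no factor's binding was measured.

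The members differ widely in how far they spread over the genome. In RefSeq's GRCr8 annotation, used for the span alone, Cadm2 spans 977 kb from its first to its last exon, Cadm1 331 kb, Cadm3 32.6 kb and Cadm4 22.3 kb. A long span with small exons is carried by introns, which RNA polymerase must cross before the transcript is complete. Cadm2 lay in the class of 500 kb or more, where 137 of 176 tested genes (77.8%) were called lower and the median log2 fold change was -1.19. Within it, 13 genes had a lower log2 fold change than Cadm2 and 162 a higher one, so its fall was larger than that of most genes of like span.

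Cadm1 was the other long member and moved differently from most genes of its class. Among 603 tested genes of 200 to 500 kb, 335 (55.6%) were called lower and 24 (3.98%) higher, with a median log2 fold change of -0.54. Cadm1 had a higher log2 fold change than 536 of them and a lower one than 66. Its 95% interval, from -0.13 to 0.32 on the log2 scale, lay above the class median. The short members stood near the top of their classes. Of 3428 genes of 30 to 100 kb, with a median of -0.07, 141 had a higher log2 fold change than Cadm3. Of 3696 genes of 10 to 30 kb, with a median of 0.06, 127 had a higher one than Cadm4, whose value has a wide error. In order of span the log2 fold changes were 0.75 for Cadm4, 0.64 for Cadm3, 0.10 for Cadm1 and -2.78 for Cadm2. This order is a description over 4 genes, and the 95% intervals of Cadm4, Cadm3 and Cadm1 overlap one another.

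**Figure D2:**
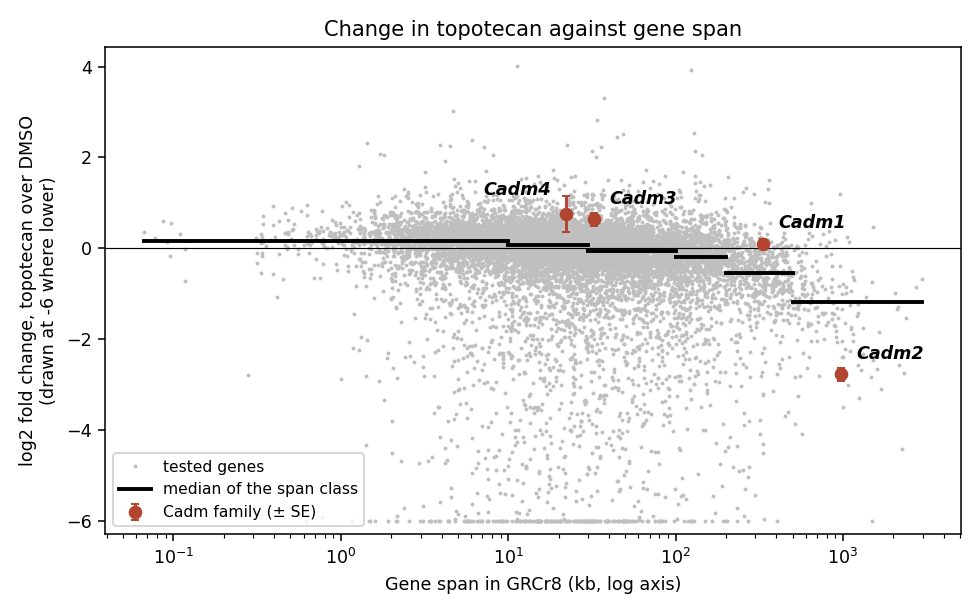
Log2 fold change of topotecan over DMSO (vertical) against gene span in kb on a log axis (horizontal) for every tested gene with a span, with values under -6 drawn at -6. Black bars are class medians, from 0.15 under 10 kb to -1.19 at 500 kb or more, and red points with SE bars are the Cadm genes, of which Cadm2 lies below its class median and the other 3 above theirs.

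The make-up of the family's counts changed with these shifts. Cadm2 took 7.42% and 6.89% of the counts of the 4 Cadm genes in the topotecan libraries, against 37.5% and 39.1% in the DMSO libraries. The exact 95% binomial intervals, which cover counting error only, ran from 5.72% to 8.70% over the topotecan libraries and from 35.5% to 41.3% over the DMSO libraries. Cadm3 took 21.9% and 24.7% in topotecan, against 11.4% and 11.9% in DMSO, and Cadm1 took 68.7% and 67.2% in topotecan, against 50.4% and 48.2% in DMSO. The share of Cadm1 was larger in topotecan although its own level did not pass the test, in a family total that was smaller. Cadm4 stayed at or under 2.01% in every library.

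Ratios within a library do not depend on how libraries are scaled. The ratio of Cadm2 to Cadm3 counts was 0.34 and 0.28 in topotecan, against 3.28 and 3.28 in DMSO. The more counted of the pair was thus Cadm3 in topotecan and Cadm2 in DMSO. As counts are not divided by transcript length, this does not rank their transcripts. The ratio of Cadm2 to Cadm1 counts, the genes of an unlike adhesion pair, was 0.108 and 0.103 in topotecan, against 0.743 and 0.810 in DMSO. The ratio of Cadm3 to Cadm1 counts was 0.32 and 0.37 in topotecan, against 0.23 and 0.25 in DMSO. Groups did not overlap in any of the 3 ratios, each of which follows from the other 2. For single genes, groups did not overlap in 70.6% of all tested genes. With 2 libraries in each group, the smallest 2-sided p that an exact permutation test of such a ratio can give is 0.333. The summed level of the 4 genes was 61.5 and 64.98 CPM in topotecan, against 82.2 and 80.5 CPM in DMSO, a ratio of group means of 0.777 with no test. Under the neuronal scaling that ratio was 0.63.

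**Figure D3:**
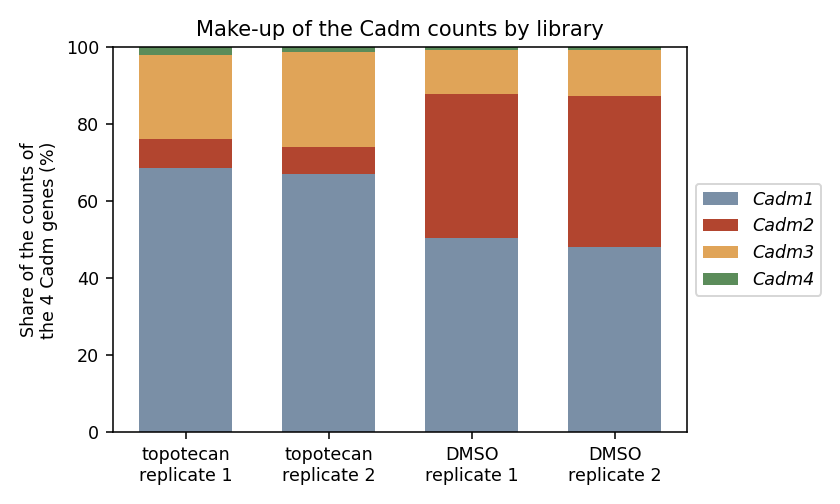
Share of the summed counts of the 4 Cadm genes taken by each gene (percent, stacked to 100), 1 bar per library, with topotecan on the left and DMSO on the right. The Cadm2 band is 7.42% and 6.89% in topotecan and 37.5% and 39.1% in DMSO, and the bands of the other members widen in topotecan.

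Genes for relatives and known partners of Cadm proteins were taken from 4 lists of 28 genes in all, of which 23 had a row and 22 were tested. Of these 7 were called lower and 1 higher, with a median log2 fold change of -0.27, beside -0.01 for all tested genes. The called shares of all tested genes were the 23.5% and 16.2% given above. Of the 10 tested genes of 100 kb or more 5 were called lower, and of the 12 shorter ones 2 were called lower and 1 higher. Among all tested genes with a span, the share called lower was 43.5% from 100 kb upwards and 20.1% under that length, so both counts lie near the background of their length. Under the neuronal scaling 13 of the 22 were called lower and 0 higher (also 0 higher at an unadjusted edgeR p under 0.05), where 37.7% of all tested genes were called lower. Under that scaling 94.1% of all calls were lower, against 59.2% under TMM.

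The FERM-domain partners of the tail all fell, 4 of 4 tested. They are long genes, at 154 kb for Epb41, 175 kb for Epb41l2, 204 kb for Epb41l3 and 239 kb for Farp1. Of all tested genes, 31.6% of those of 100 to 200 kb and 55.6% of those of 200 to 500 kb were called lower. Epb41l2, which codes for the FERM-domain protein that binds Cadm4 in myelinating cells of peripheral nerve, had 223 and 198 counts in topotecan, against 3954 and 3537 counts in DMSO. Its log2 fold change was -4.29 (SE 0.11, edgeR adjusted p = 1.6e-12), the deepest of the partner genes. Glial markers were called lower in the same libraries, as given above, and their part in this fall was not tested. Epb41l3, a neuronal relative that binds Cadm1, fell by 0.51 in log2 terms (SE 0.10), and Epb41, the founding member of the family, fell by 0.996 (SE 0.20). Farp1, a guanine nucleotide exchange factor that acts below Cadm1 at dendrites, had 921 and 806 counts in topotecan, against 1297 and 1029 in DMSO, and had a log2 fold change of -0.56 (SE 0.11, edgeR adjusted p = 0.0010).

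The scaffolds that bind the PDZ ligand, or that pair with Cask, were mixed, with 2 of 10 called lower and 1 higher. Over all tested genes 23.5% were called lower and 16.2% higher, so these counts are close to the background. Pals1, a membrane-associated guanylate kinase of cell polarity, fell by 1.35 (SE 0.15), and Mpp7, a related scaffold, fell by 1.47 (SE 0.23). Lin7b, a small PDZ protein that joins Cask, rose by 0.37 (SE 0.10, edgeR adjusted p = 0.0099), a call that the neuronal scaling removed. Cask itself had 25 and 19 counts in topotecan, against 33 and 34 in DMSO, and its log2 fold change of -0.74 (SE 0.35, edgeR adjusted p = 0.11) did not pass. Mpp3, a scaffold that binds Cadm1, was at 0.25 (SE 0.14) with no call, except that without DMSO replicate 1 it was called higher as well, which made 2 higher calls among the partner genes. Pals2, Lin7a, Lin7c, Apba1 and Dlg4, the last coding for the postsynaptic scaffold PSD-95, lay between -0.39 and 0.11 with no call, although Apba1 and Lin7c were called lower when DMSO replicate 1 was left out. Under the neuronal scaling Cask, Lin7a, Lin7c, Apba1 and Dlg4 were all called lower.

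The 4 nectin genes, the closest relatives of the family, gave no call. Nectin3, whose protein is an unlike partner of Cadm1, had 75 and 43 counts in topotecan, against 81 and 79 in DMSO, with a log2 fold change of -0.59 (SE 0.25, edgeR adjusted p = 0.080). It was called lower when topotecan replicate 1 was left out and under the neuronal scaling. Nectin1, Nectin2, Nectin4 and Afdn, which codes for the actin adaptor of nectins, were between -0.18 and 0.42. Pvr, the nectin-like gene outside the Cadm group, fell by 0.94 (SE 0.16), with 178 and 152 counts in topotecan and 312 and 267 in DMSO. Crtam, a receptor of lymphocytes for Cadm1, had at most 4 counts in any library and was not tested. St8sia2, the sialyltransferase that puts polysialic acid on Cadm1, and its relative St8sia4 were at 0.75 (SE 0.42) and 0.92 (SE 0.57) with no call.

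**Figure D4:**
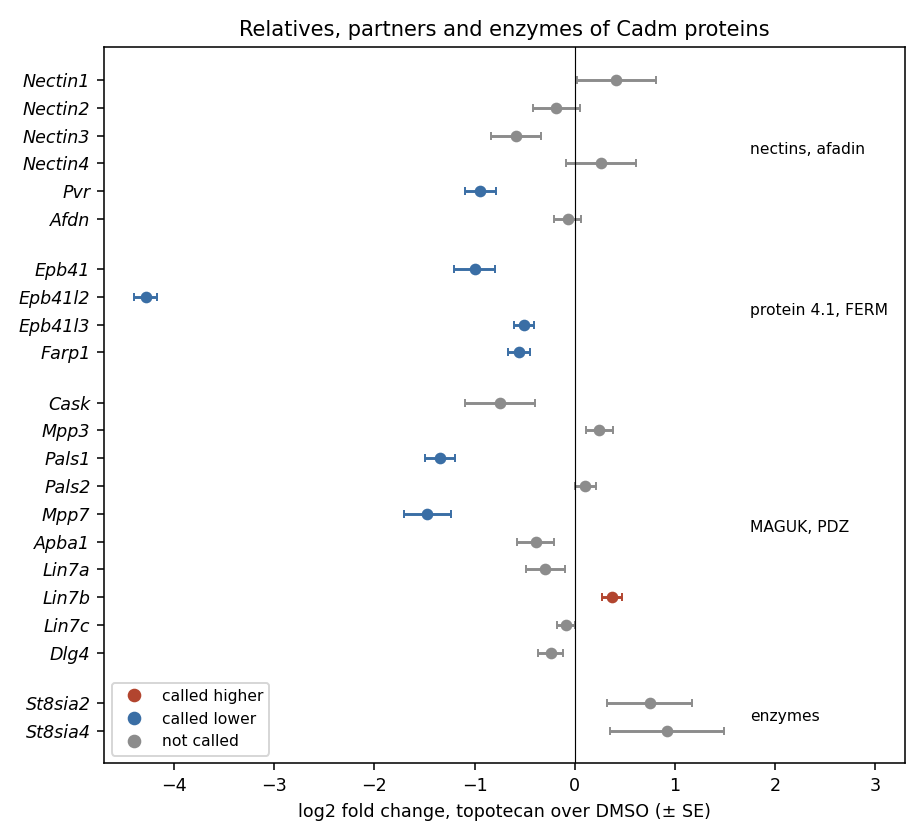
Log2 fold change of topotecan over DMSO with its SE (horizontal) for the 22 tested genes of the 4 lists of relatives, partners and enzymes (rows), coloured by the call at an adjusted p of 0.05. The 4 genes with FERM domains all lie left of 0 and are called lower, with Epb41l2 at -4.29, and Lin7b is the one called higher.

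To see which genes moved most like each member, the level of each gene in the 4 libraries was taken on the log2 CPM scale and centred on its own mean. The 3 nearest of 8247 genes, by Euclidean distance over the 4 libraries, are named for each. Nearest to Cadm2 were Pc, which codes for pyruvate carboxylase, Enpp2, which codes for the enzyme autotaxin, and Slc1a2, which codes for a glutamate transporter of astrocytes. Their log2 fold changes were -2.85, -2.68 and -2.82, and their distances were 0.0887, 0.0981 and 0.11. Their spans of 99.1, 123 and 130 kb were far shorter than that of Cadm2. Slc1a2 is 1 of the 10 astrocyte markers listed here and fell least of them. The other 9 had log2 fold changes from -10.58 to -3.63, and the median of the list was -6.56, beside -2.78 for Cadm2. Pc and Enpp2 were on none of the marker lists, and which cells make them was not examined. The part of glial cells in the fall of Cadm2 was not tested. Slc1a2 had 2.28 and 2.50 CPM in topotecan, against 16.6 and 17.1 CPM in DMSO.

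Nearest to Cadm3 were Ube2s, a ubiquitin-conjugating enzyme gene, Sbk1, a kinase gene of brain, and Zfp623, a zinc finger gene, at distances from 0.0417 to 0.0786. They had log2 fold changes of 0.66, 0.62 and 0.59, and all passed the test. Nearest to Cadm1 were Mrps16, a mitochondrial ribosomal protein gene, Cox6b1, a cytochrome oxidase subunit gene, and Hmox2, a heme oxygenase gene, with log2 fold changes of 0.09 to 0.10 and no call. They span 2.40, 9.004 and 34.1 kb, against 331 kb for Cadm1. Nearest to Cadm4 were Eif4ebp1, Cysrt1 and Piwil2, with log2 fold changes of 0.70 to 0.80. With 4 libraries in 2 groups the profile holds little beyond the change between groups and the spread within them.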

How the data were processed

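Counts of 4 libraries of total RNA were read from 1 deposited table of whole-number counts per Ensembl gene, made by the authors with STAR and edgeR named per the submitters' processing notes, without versions. The genome build, annotation, counting tool and strand setting are not stated in any source at hand, so overlapping genes could share reads. Groups come from the sample titles. The 22641 rows held 21648 identifiers, and the 792 on several rows had identical counts and were used once. Replicates differed by more than sampling noise (chi-square per degree of freedom 9.34 in topotecan and 13.0 in DMSO).

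The test was edgeR 4.0.16 (R 4.3.3), quasi-likelihood, treatment as the only term, TMM scaling and filterByExpr (minimum count 10, minimum total 15), which left 12162 genes, 2 residual degrees of freedom and a biological coefficient of variation of 0.0831. Adjusted p-values are Benjamini-Hochberg over all tested genes. Each SE is the log2 fold change over the square root of the F statistic. Spans are from RefSeq's GRCr8 annotation, found for 96.8% of tested genes. Alternatives were other scalings, no filter, DESeq2 1.42.0, limma-voom 3.58.1, a replicate block and each library left out.

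The members, partner lists and marker lists were chosen with earlier results of these data known. An item of the partner lists is not reported here and was left out of their counts. Named genes are the 4 members, the partner lists, up to 3 of the most abundant of each marker list, and the 3 genes of ordinary symbol and average log2 CPM of at least 2 nearest to each member. Pan-neuronal markers called in either direction, and markers at 0, are named beyond that rule, after their values were seen.

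The other marker lists were as follows. All 6 tested radial glia and progenitor markers of 8 were called lower (summed 10.0 and 8.76 CPM in topotecan, 361 and 341 in DMSO, Hes5 at 0 in topotecan). No microglia marker was tested, with 5 of 6 at 0 in both topotecan libraries and 4 of 6 at 0 in both DMSO libraries. Of endothelial markers 1 was tested and called lower. Of 5 fibroblast and mural cell markers 2 were tested, 1 called lower and 1 higher.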

Additional observations from a re-analysis of the deposited data

How the results depend on the processing

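Cadm2 kept its direction and its call under all 11 alternatives, with log2 fold changes from -3.08 to -2.76. Cadm4 kept its direction and stayed without a call under all 11, and with 1 library left out it ranged from 0.38 to 1.02. The scaling to neuronal genes turned Cadm1 to -0.20 and took Cadm3 to 0.33 without a call. It put the genes called lower at 4582 and those called higher at 285. Under it 13 partner genes were lower and 0 higher, and the ratio of the summed Cadm level was 0.63. The sum behind this scaling is dominated by Tubb3, Stmn2, Uchl1 and Stmn3. With 1 library left out, Cadm3 ranged from 0.51 to 0.76, the genes called higher from 1208 to 2470, and the partner genes called higher from 1 to 2. Leaving out a library leaves 1 sample in its group, which is then assumed to vary like the other group. The replicate numbers are shared by the groups, but their deviations were nearly uncorrelated (r = -0.04 across genes). With 2 libraries in each group, this cannot decide whether samples of the same number were prepared together. With a replicate block the log2 fold changes were -2.78 for Cadm2, 0.63 for Cadm3, 0.10 for Cadm1 and 0.73 for Cadm4, no member's call changed, and 2746 genes were lower and 1822 higher. Depth limits Cadm4, with at most 38 counts in a library. The cause of these shifts was not tested beyond what each alternative changes by construction.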

Other observations

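The genes beside the members in the GRCr8 annotation were looked up after the members' values were seen. Cadm2 lies between Chmp2b, which codes for a subunit of the ESCRT membrane scission machinery, and Robo1, a receptor gene of axon guidance, among tested genes. Chmp2b, which spans 26.5 kb, had 41.7 and 42.6 CPM in topotecan, against 31.5 and 28.6 CPM in DMSO, and rose by 0.49 in log2 terms (SE 0.11, edgeR adjusted p = 0.0030). Robo1, which spans 1041 kb, had 10.4 and 10.9 CPM in topotecan, against 18.05 and 20.4 CPM in DMSO, and its log2 fold change was -0.85 (SE 0.14, edgeR adjusted p = 2.6e-04). The short and the long neighbour of Cadm2 were thus called in opposite directions. Next to Cadm4, Plaur, which codes for the urokinase receptor, had 11.6 and 11.4 CPM in topotecan, against 8.12 and 5.39 CPM in DMSO, and rose by 0.76 (SE 0.19). Bud13 and Nxpe1 beside Cadm1, and Zfp428 on the other side of Cadm4, had no call. Beside Cadm3 lie Aim2 and a gene of 0.312 kb whose row is named Rps29, both without a call. In the annotation 3 other genes overlap the span of Cadm1 and 1 overlaps that of Cadm2. Of these, 0 were matched to a row of the count table, so reads shared with them could not be followed.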
